A study of Homo sapiens with 12 samples.

Results

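The mitochondrial ribosomal protein genes described here are the 78 genes, of 58174 in the deposited table, whose names are MRPL or MRPS followed by a number and an optional letter. Hyphenated names and pseudogenes were dropped, which removed 1 row and 67 rows of the 146 that begin this way. The 78 genes comprise 49 MRPL and 29 MRPS names, are all annotated as protein-coding and lie on 21 chromosomes. No expression value entered the choice, and all 78 passed the filter on low counts.

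Mitochondria carry their own ribosome, which translates the few membrane proteins of the respiratory chain and the ATP synthase that the mitochondrial genome encodes. Its RNAs are made inside the organelle, while all its proteins are encoded by nuclear genes, made in the cytosol and imported. Many of these proteins descend from bacterial ribosomal proteins, and the others were gained in the mitochondrial lineage. The names do not always give the subunit, since MRPS30 and MRPS18A sit in the large subunit, and MRPS36 is a component of the 2-oxoglutarate dehydrogenase complex. Cells keep a large supply of these proteins when they grow, and the promoters of their genes are known for binding sites of ETS factors such as GABPA, of NRF1 and of YY1.

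H520 is an established cell line derived from a squamous cell carcinoma of the lung. RNA levels were compared in 4 groups of 3 libraries each. The treated groups are labelled with 72 h of treatment, while the labels give no time for the control. The combination group received BLU9931 at 1 µM together with palbociclib at 1 µM, the palbociclib group palbociclib at 1 µM, the BLU9931 group BLU9931 at 1 µM, and the fourth group was the control. Palbociclib blocks CDK4 and CDK6, kinases that drive entry into S phase, and BLU9931 binds covalently to FGFR4, a fibroblast growth factor receptor. All groups are of the same single line. What was added to control cells is not stated in the labels, nor whether replicate libraries derive from independent cultures, so p-values here refer to the spread between libraries, which may be technical. In the markers fixed for squamous cells, SOX2 was abundant at a mean of 409 TPM over the 12 libraries and KRT15 reached 7.82 TPM, while TP63, KRT5, KRT14 and DSG3 lay under 1 TPM and KRT17 was at 0 in every library. Only 2 of the 9 squamous markers thus exceeded 1 TPM, which goes against the labelled squamous type, and the neuroendocrine marker INSM1 was at 20.1 TPM.

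Several marker sums moved with the groups. The squamous sum, nearly all SOX2, was 429 to 456 TPM in the combination, 441 to 454 TPM under palbociclib, 410 to 427 TPM under BLU9931 and 347 to 386 TPM in control. The leukocyte sum of 5 markers, mostly LYZ, was 3.95 to 4.62 TPM in the combination, 2.32 to 3.02 TPM under palbociclib, 0.678 to 1.31 TPM under BLU9931 and 0.67 to 1.14 TPM in control, with PTPRC and CD3E near 0. The fibroblast sum of 5 markers, mostly COL1A1, was 1.45 to 3.0 TPM in the combination, 2.35 to 3.65 TPM under palbociclib, 5.3 to 5.52 TPM under BLU9931 and 1.97 to 4.69 TPM in control, and COL1A1 fell by 1.35 in the combination against BLU9931 (log2, adjusted p = 0.00262 by edgeR). The glandular sum of 5 markers, mostly NKX2-1, was 6.71 to 8.27 TPM in the combination, 8.13 to 11.5 TPM under palbociclib, 9.36 to 10.9 TPM under BLU9931 and 3.03 to 8.88 TPM in control. The part of these differences in the results below was not tested.

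The libraries held between 21.7 M and 35.8 M counts. The libraries palbociclib 3 and control 1 stood apart from their group mates in a way that followed the GC content of the transcripts. Across the 78 genes, how far a gene lay from its group mean correlated with GC content at a Spearman rho of -0.79 in palbociclib 3 and -0.75 in control 1, given as a description over genes of the same libraries. The other libraries of these 2 groups had rho between 0.62 and 0.73, which in part mirrors the deviating library, and the combination and BLU9931 libraries lay between -0.5 and 0.5. In palbociclib 3 the 39 genes richer in GC lay at a median of -0.22 (log2) from the group mean and the 39 poorer ones at 0.17, and in control 1 the medians were -0.14 and 0.22. Counts of changed genes are therefore given with and without these 2 libraries, and a fit with offsets for GC content is among the alternatives given at the end.

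**Figure D1:**
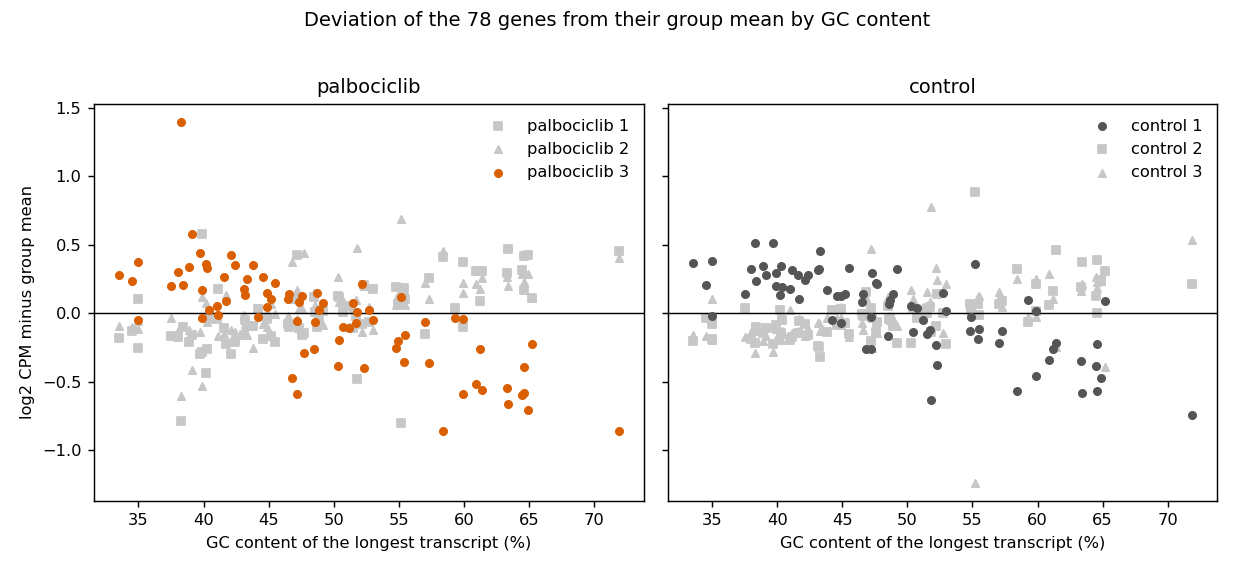
Deviation of the 78 genes from their group mean (log2 CPM, vertical axis) against the GC content of the longest transcript (percent, horizontal axis), for palbociclib and control libraries. Palbociclib 3 and control 1 (coloured circles) slope downwards, with rho of -0.79 and -0.75, while their group mates (grey squares and triangles) slope upwards.

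RefSeq (GRCh38.p14) gives a promoter window of 250 bases before to 50 after the transcription start for 69 of the 78 genes. For the 11 members with several RefSeq starts, the first listed was used. The ETS core CCGGAAG, the site that GABPA binds, occurred on either strand in 29 of these windows (42.0%), against 10.3% of 35116 windows of all genes and 17.8% of 11161 windows of protein-coding genes that were tested. The YY1 motif AAGATGGCG occurred in 13 windows (18.8%), against 1.75% and 3.64%. The palindromic NRF1 motif was found in 1 window (1.45%), against 1.24% and 2.15%, the E-box CACGTG in 6 (8.7%), against 7.26% and 10.1%, and the E2F motif TTTCCCGC in 1 (1.45%), against 1.63% and 2.47%. The ETS core was thus the most frequent of the 5 motifs searched in these windows, the shares are descriptions, and a match of letters is not a bound site. The 100 bases before the RefSeq start used are shown for MRPL58 and MRPL48, which fell under palbociclib, for the abundant MRPL3 and MRPL20, for the scarce MRPS23 and for MRPL17, which was higher under the combination. Those of MRPL48 lie inside the gene as the deposited table places it, with a start at 73787316. The windows shown read as follows. All read 5′ to 3′ along the gene, with each ETS core in capitals (CTTCCGG is the same core on the other strand), and for MRPL17 with the NRF1 palindrome in capitals.
MRPL58 (chr17:75012570-75012669, plus strand): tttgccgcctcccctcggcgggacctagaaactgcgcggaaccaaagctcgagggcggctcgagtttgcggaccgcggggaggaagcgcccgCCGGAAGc
MRPL48 (chr11:73787774-73787873, plus strand): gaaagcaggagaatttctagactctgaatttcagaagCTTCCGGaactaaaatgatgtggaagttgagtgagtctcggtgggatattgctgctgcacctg
MRPL3 (chr3:131502972-131503071, minus strand): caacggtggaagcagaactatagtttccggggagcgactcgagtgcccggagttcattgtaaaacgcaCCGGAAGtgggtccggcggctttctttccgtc
MRPL20 (chr1:1407294-1407393, minus strand): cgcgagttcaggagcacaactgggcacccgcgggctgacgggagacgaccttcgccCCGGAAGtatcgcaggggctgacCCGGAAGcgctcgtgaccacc
MRPS23 (chr17:57850045-57850144, minus strand): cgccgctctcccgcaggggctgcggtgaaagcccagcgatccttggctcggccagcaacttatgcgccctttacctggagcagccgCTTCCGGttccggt
MRPL17 (chr11:6683341-6683440, minus strand): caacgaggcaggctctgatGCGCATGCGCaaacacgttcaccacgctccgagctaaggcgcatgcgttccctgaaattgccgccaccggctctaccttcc
Among genes that fell under palbociclib against control, 6 of 18 windows held the ETS core, against 23 of 51 windows of the other members. The E-box was present in 4 of 18 and 2 of 51 of these windows.

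The 78 genes also shared their layout. The longest transcript had a median of 1722 bases, against 3617 for the 14580 protein-coding genes tested, and a median GC content of 47.7%, against 48.8%. The members' GC content ranged from 33.5% to 71.9%. A protein-coding gene started within 1000 bases on the opposite strand for 29 members (37.2%), against 16.1% of the protein-coding genes tested. MRPL21 starts 7 bases from IGHMBP2, and the members MRPL46 and MRPS11 start 34 bases from each other. Pseudogenes of 30 members are in the table, and their counts exceeded 5% of the parent gene only for MRPS31 (82.6%) and MRPL45 (6.28%), whose values are uncertain in that measure. Since the use of strand in the counting is not given in the sources used here, reads of overlapping genes cannot be told apart. Of the 78 members, 40 share exon bases with another gene of the table, and for 30 of them such a gene averaged more than 10% of the member's CPM.

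All members were expressed. Mean TPM over the 12 libraries, which scales counts by transcript length and so allows genes to be compared, ranged from 11.1 to 149 with a median of 43.1 and quartiles of 30.6 and 76.9. The median of the protein-coding genes tested was 17.1 TPM, and 75 of 78 members exceeded it. The highest levels were those of MRPL28 (149 TPM), MRPL3 (147 TPM) and MRPL20 (146 TPM), proteins of the large subunit with bacterial counterparts. Their libraries ranged from 79.9 to 167 TPM, from 116 to 219 TPM and from 111 to 164 TPM, so these 3 levels do not differ beyond their spread. MRPS36 had the lowest level at 11.1 TPM (9.22 to 14.5 TPM over libraries), followed by the small-subunit gene MRPS23 at 14.9 TPM (12.2 to 18) and the large-subunit gene MRPL50 at 15.9 TPM (12.9 to 22.1). These ranges overlap too.

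For a gene across libraries, CPM is used below, which are counts per library size after TMM scaling. The summed CPM of the 78 genes was 2896, 2910 and 2870 in the combination libraries, 2648, 2720 and 2706 in the palbociclib libraries, 3137, 2863 and 3051 in the BLU9931 libraries, and 3552, 3268 and 3328 in the control libraries. The CPM sums were lower in every treated library than in any control library, and those of palbociclib lay below those of all other groups. Summed TPM did not keep this order in every library, since BLU9931 1 (4682) lay above control 2 (4639) and palbociclib 2 (4152) above combination 1 (4114). It averaged 4167 ± 69.0 in the combination, 3908 ± 221 under palbociclib, 4433 ± 249 under BLU9931 and 4764 ± 121 in control (SD, n = 3 each). In these bulk samples, fewer cells with a transcript and less of it per cell cannot be told apart.

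**Figure D2:**
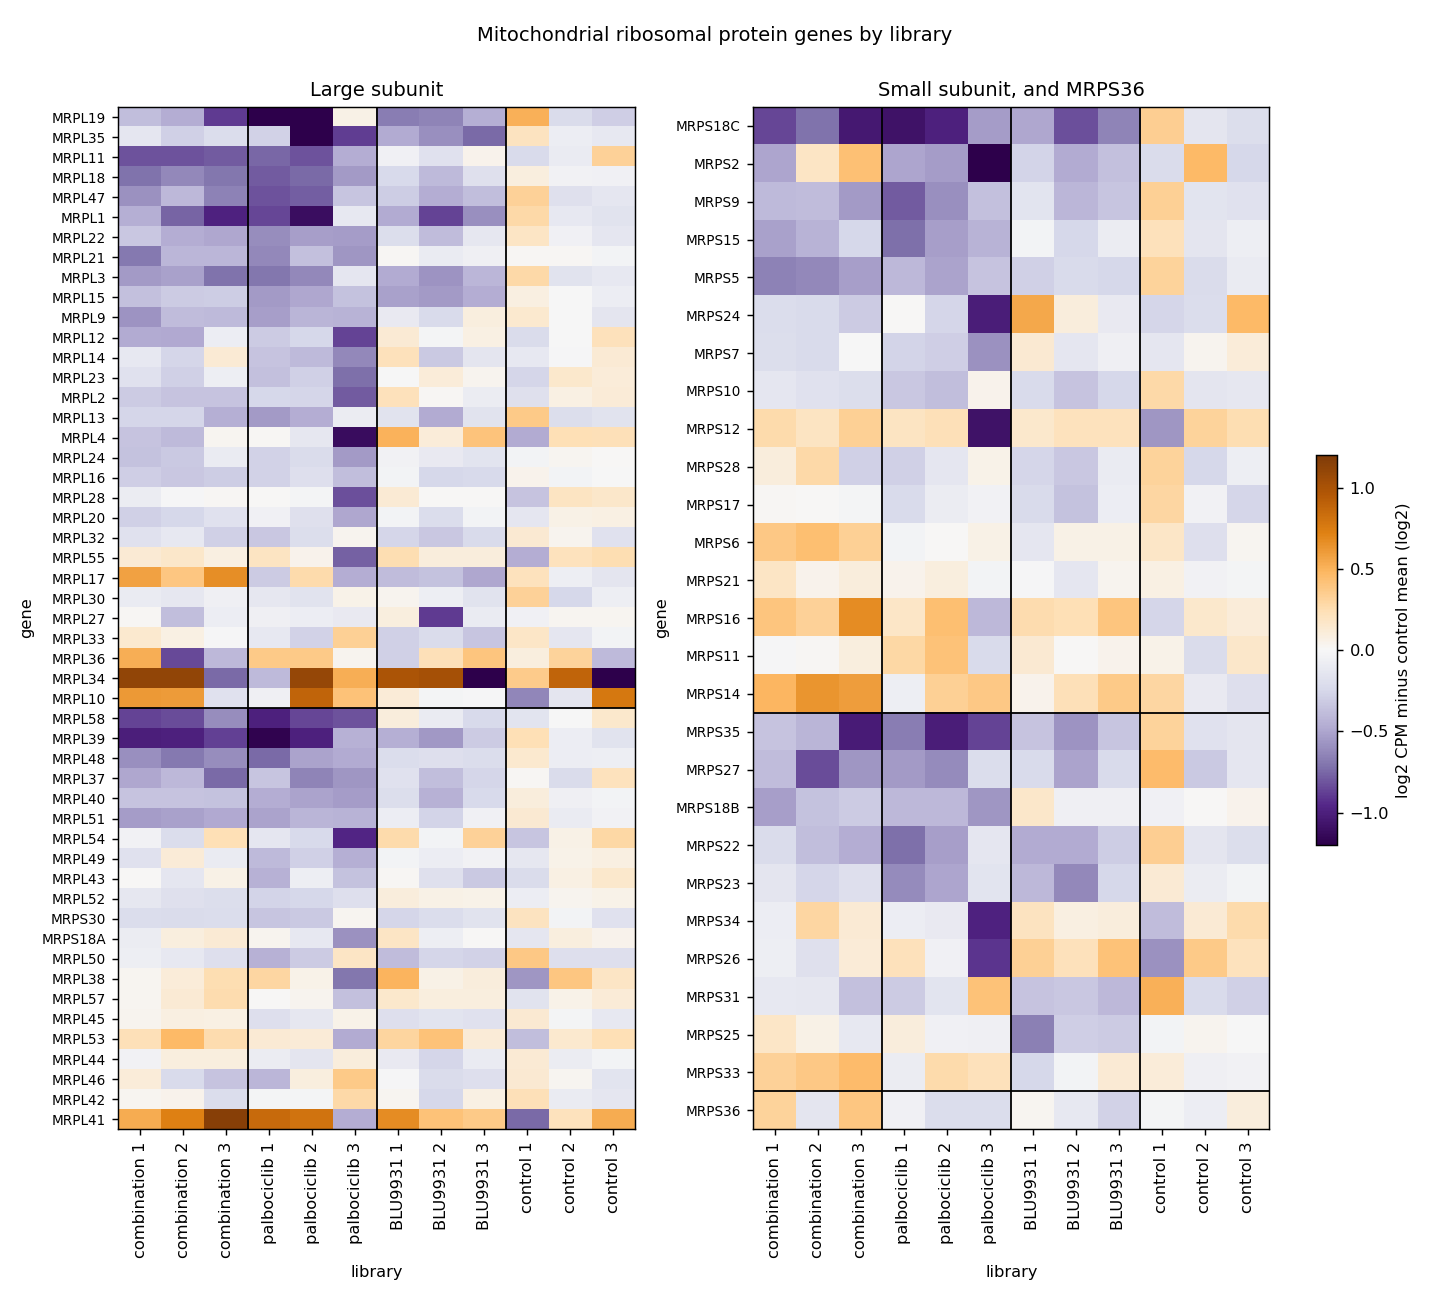
Level of each of the 78 genes in each library as log2 CPM minus the mean of the 3 control libraries (colour scale, log2), with large-subunit genes on the left and small-subunit genes and MRPS36 on the right. Horizontal lines separate genes with a bacterial counterpart (upper) from those particular to mitochondria, and the purple upper rows are the genes lowest under palbociclib and the combination.

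The first comparison sets palbociclib alone against control. Of the 78 genes, 21 fell and 0 rose (edgeR's quasi-likelihood test, Benjamini-Hochberg adjusted p under 0.05 over 20612 genes), with a median log2 change of -0.32 against 0.01 for all genes tested. Of all genes tested, 10.5% fell and 10% rose, so the share of members that fell, 26.9%, was above the background, and the share that rose was below it. The fitted change was below 0 for 65 of 78 members, against 49.0% of all genes, and ranged from -1.02 (MRPL19) to 0.41 (MRPL41). No member changed at least 2-fold with a call, since MRPL19, with 12.7, 14.4 and 57.7 CPM in the palbociclib libraries and 78.9, 47.7 and 45.3 CPM in the control libraries, did not pass the test (adjusted p = 0.159 by edgeR). MRPL19, named for its value, was called without palbociclib 3 and control 1. In all 21 that fell, each palbociclib library lay below each control library, as in 97.2% of all genes that fell. Called or not, 32 of 78 members had this order, against 16.2% of all genes tested.

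**Figure D3:**
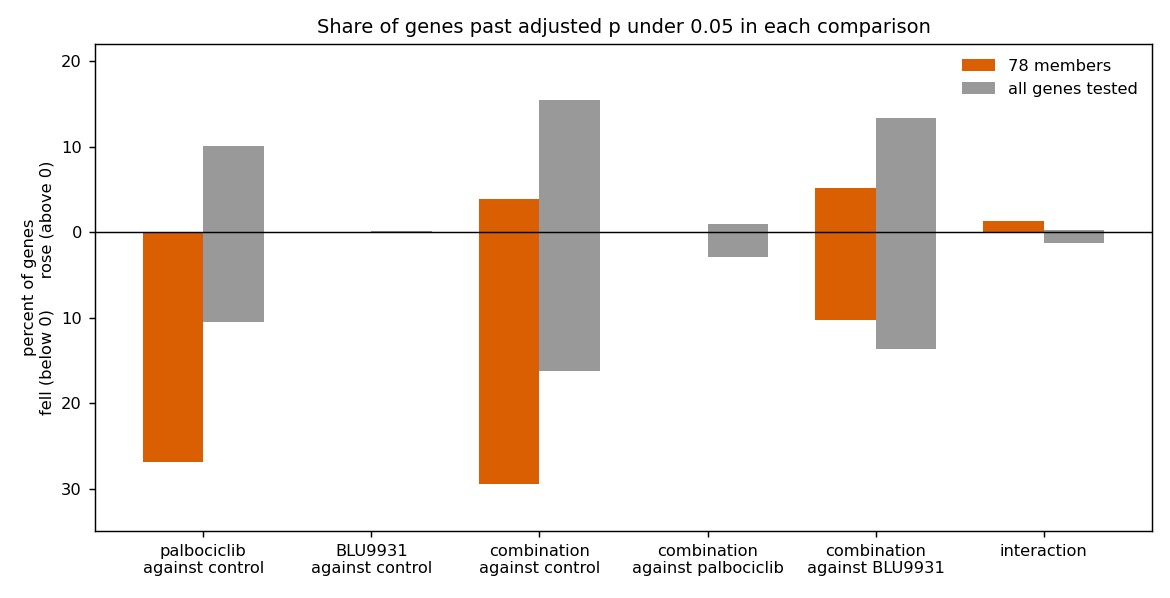
Percent of genes past the threshold in each of the 6 comparisons, for the 78 mitochondrial ribosomal protein genes (orange) and all 20612 genes tested (grey), with rises above 0 and falls below 0. The members' share of falls exceeds that of all genes under palbociclib (26.9% against 10.5%) and the combination (29.5% against 16.3%), each set against control.

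The largest called fall was that of MRPL58 (ENSG00000167862, GRCh38 chromosome 17, 75012670 to 75021261), a large-subunit protein that can release peptides from stalled ribosomes. MRPL58 had 16.7, 17.0 and 20 CPM in the combination libraries, 15.2, 16.8 and 17.3 CPM in the palbociclib libraries, 32.6, 28.4 and 25.8 CPM in the BLU9931 libraries, and 27.4, 30.4 and 33.9 CPM in the control libraries. Every library with palbociclib, alone or combined, lay below every library without it. Palbociclib changed MRPL58 by -0.90 ± 0.14 (log2, SE, adjusted p = 0.000961 by edgeR), a fall by 46.2%. Without palbociclib 3 and control 1 the change was -1.03.

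MRPS18C (ENSG00000163319, chromosome 4, 83455932 to 83469735) encodes a small-subunit protein, one of 3 paralogs related to bacterial protein S18. Its levels were 19.5, 21.5 and 17.2 CPM in the combination, 16.7, 17.7 and 24.4 CPM under palbociclib, 25.2, 19.9 and 22.7 CPM under BLU9931, and 45.0, 32.0 and 30.8 CPM in control. All 9 treated libraries lay below the 3 control libraries. Palbociclib changed MRPS18C by -0.88 ± 0.19 (log2, SE, adjusted p = 0.00793 by edgeR). Its exons overlap those of FAM175A, which averaged 11.6 ± 3.61 CPM under palbociclib and 9.93 ± 2.29 CPM in control (SD, n = 3 each). MRPS18B, the other small-subunit paralog, changed by -0.46 ± 0.11 (adjusted p = 0.0136 by edgeR), with 32.2, 32.1 and 28.8 CPM under palbociclib and 41.1, 42.9 and 44.0 CPM in control. MRPS18A, the paralog in the large subunit, had 24.0, 21.6 and 15.6 CPM under palbociclib and 21.4, 24.9 and 24.2 CPM in control, which overlap, and its change of -0.20 ± 0.16 did not pass the test (adjusted p = 0.416 by edgeR). Within this family, the small-subunit paralogs were thus called and the large-subunit paralog was not, and the difference between them was not tested.

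MRPS35 (ENSG00000061794, chromosome 12, 27710773 to 27756295), a small-subunit protein without a bacterial counterpart, had 30.6, 24.1 and 26.8 CPM under palbociclib and 60.7, 43.3 and 44.1 CPM in control. These groups do not overlap, and the change was -0.86 ± 0.19 (log2, SE, adjusted p = 0.00906 by edgeR). MRPL39 (ENSG00000154719, chromosome 21, 25585656 to 25607517), which lies near the polypeptide exit and resembles a tRNA synthetase, had 9.72, 11 and 16.1 CPM under palbociclib and 26.0, 20.8 and 19.6 CPM in control. Control 1 was the highest control library for both genes, whose GC content is 41.1% and 42.1%. MRPL39 changed by -0.85 ± 0.19 (adjusted p = 0.00824 by edgeR), and without control 1 and palbociclib 3 the changes were -0.69 for MRPS35 and -0.98 for MRPL39.

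**Figure D4:**
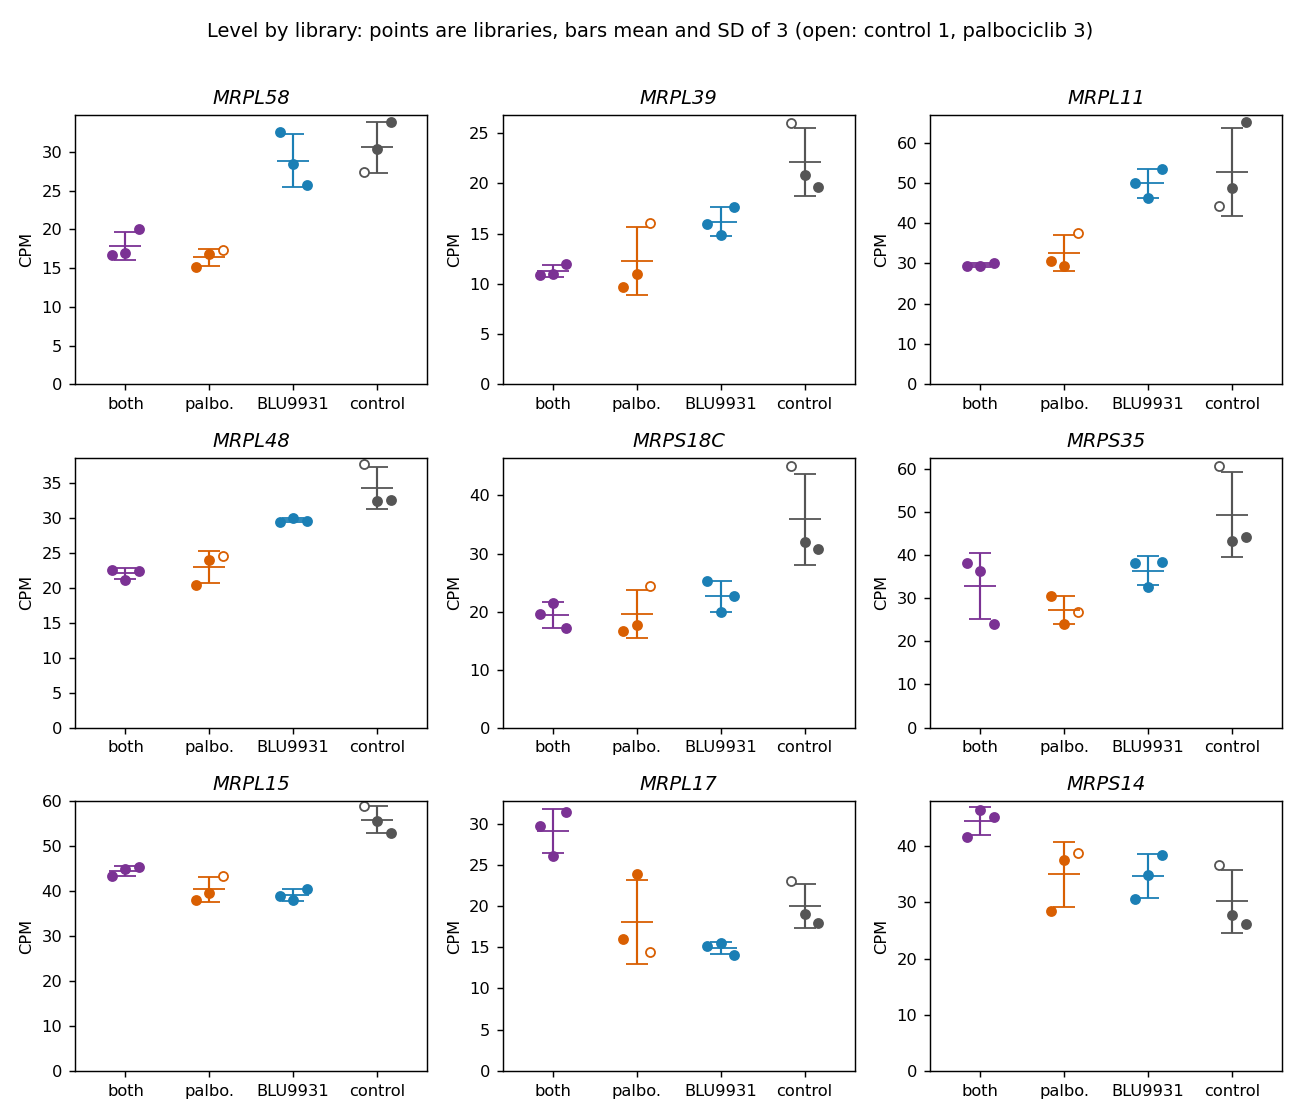
CPM of 9 genes in each library (points), with the mean and SD of 3 libraries (bars), for both drugs, palbociclib (palbo.), BLU9931 and control, with control 1 and palbociclib 3 as open points. MRPL58, MRPL11 and MRPL48 lie lower in all 6 libraries with palbociclib than in the 6 without it, while MRPL17 is highest in the combination.

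The falls were spread over the structural groups of the ribosome. Among large-subunit proteins with a bacterial counterpart, 8 of 30 fell (median -0.40), and among those particular to mitochondria 7 of 21 (median -0.21). In the small subunit, 4 of 16 with a bacterial counterpart fell (median -0.19) and 2 of 10 without one (median -0.39). By position, 1 of 5 listed stalk proteins, 3 of 7 listed proteins of the central protuberance and 2 of 6 listed proteins at the polypeptide exit fell. These lists of positions are partial, and MRPL58 is in none of them. Of all genes tested, 10.5% fell, and with groups of this size the shares were not compared.

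In the stalk, which recruits the translation factors, MRPL11 at its base (ENSG00000174547, chromosome 11, 66435075 to 66466738) had 29.4, 29.4 and 30 CPM in the combination, 30.7, 29.4 and 37.6 CPM under palbociclib, 50, 46.2 and 53.5 CPM under BLU9931, and 44.3, 48.6 and 65.1 CPM in control. The libraries with palbociclib do not overlap those without it, and palbociclib changed MRPL11 by -0.69 ± 0.15 (log2, SE, adjusted p = 0.00807 by edgeR). PELI3, whose exons overlap those of MRPL11, averaged 7.22 ± 2.92 CPM under palbociclib and 7.19 ± 2.93 CPM in control. MRPL12, the stalk protein that binds the factors and also the mitochondrial RNA polymerase, had 46.6, 48.6 and 31.6 CPM under palbociclib and 49.5, 57.8 and 67.5 CPM in control, and its change of -0.46 ± 0.18 missed the threshold (adjusted p = 0.095 by edgeR). Its groups do not overlap, and palbociclib 3, the lowest library, is the one low in GC-rich transcripts (MRPL12 has 64.6% GC). MRPL10, which anchors MRPL12, had 30.9, 59.8 and 43.2 CPM under palbociclib and 20.8, 29.3 and 55.3 CPM in control, a spread within each group larger than the difference between them (change 0.34 ± 0.34, adjusted p = 0.536 by edgeR).

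In the central protuberance, the contact to the small subunit, MRPL18 fell by 0.69 (SE 0.11, adjusted p = 0.00102 by edgeR), MRPL48 by 0.58 and MRPL40 by 0.50 on the log2 scale. MRPL48 (ENSG00000175581, chromosome 11, 73787316 to 73865133) had 22.6, 21.2 and 22.5 CPM in the combination, 20.4, 24.0 and 24.6 CPM under palbociclib, 29.5, 30 and 29.6 CPM under BLU9931, and 37.8, 32.5 and 32.7 CPM in control. Its 4 groups thus form steps, with both groups given palbociclib lowest and overlapping each other, BLU9931 next and control highest.

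At the polypeptide exit, MRPL22 fell by 0.56 beside MRPL39, while 2 further proteins of this side did not pass the test. MRPL45, which holds the ribosome at the inner membrane, had 75.6, 79.3 and 89.4 CPM under palbociclib and 95.3, 85.4 and 79.6 CPM in control (change -0.09 ± 0.10, adjusted p = 0.578 by edgeR). MRPL44, a protein with an RNase III fold, had 34.3, 33.0 and 39.1 CPM under palbociclib and 39.8, 34.3 and 35.6 CPM in control (change -0.04 ± 0.11, adjusted p = 0.827 by edgeR). Both pairs of groups overlap.

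Of the core proteins of the large subunit, MRPL2 had 22.7, 22.5 and 15.6 CPM under palbociclib and 23.7, 28.3 and 29.3 CPM in control (change -0.42 ± 0.16, adjusted p = 0.0876 by edgeR). MRPL3 had 94.3, 99.3 and 139 CPM under palbociclib and 186, 137 and 141 CPM in control (change -0.48 ± 0.16, adjusted p = 0.056 by edgeR). Neither passed the test, and the groups of MRPL3 overlap through palbociclib 3. The reads of MRPL2 cannot be told apart from those of KLC4, which overlaps it and rose by 0.69 under palbociclib (adjusted p = 0.0314 by edgeR). MRPL41, particular to mitochondria and the member richest in GC at 71.9%, had 19.9, 19.2 and 8.0 CPM under palbociclib and 6.59, 12.8 and 16 CPM in control. Its lowest libraries were the 2 that stand apart, and it did not pass the test (0.41 ± 0.36, adjusted p = 0.467 by edgeR). MRPS30, a large-subunit protein in spite of its name, had 76.5, 77.9 and 98.6 CPM under palbociclib and 112, 95 and 86.5 CPM in control (change -0.21 ± 0.12, adjusted p = 0.264 by edgeR).

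In the small subunit, MRPS12 of the decoding site had 33.9, 34.9 and 14.0 CPM under palbociclib and 20.1, 37.1 and 35.3 CPM in control (change -0.16 ± 0.30, adjusted p = 0.763 by edgeR). The other libraries of both groups lay within 33.9 to 37.1 CPM, so its low values are those of palbociclib 3 and control 1, and SARS2 overlaps its exons. MRPS7, a protein of the subunit's head, had 68.6, 67.1 and 55.2 CPM under palbociclib and 75, 84.6 and 88.8 CPM in control, which do not overlap, with a change of -0.38 ± 0.12 (adjusted p = 0.0514 by edgeR). MRPS16 had 32.7, 39.3 and 21.9 CPM under palbociclib and 24.2, 32.2 and 31.3 CPM in control (0.10 ± 0.20, adjusted p = 0.78 by edgeR). DNAJC9, which overlaps MRPS16, fell by 0.53 under palbociclib (adjusted p = 0.014 by edgeR). MRPS27, a pentatricopeptide repeat protein that binds RNA, had 38.5, 36.8 and 48.8 CPM under palbociclib and 77.4, 45.1 and 51.5 CPM in control (-0.49 ± 0.20, adjusted p = 0.118 by edgeR). MRPS36 had 7.21, 6.45 and 6.47 CPM under palbociclib and 7.37, 7.09 and 8.04 CPM in control (-0.16 ± 0.16, adjusted p = 0.535 by edgeR).

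The other genes that fell under palbociclib were MRPL9, MRPL15, MRPL21, MRPL35, MRPL37, MRPL47, MRPL49, MRPL51, MRPS5, MRPS9 and MRPS15, with log2 changes between -0.78 (MRPL35) and -0.38 (MRPL49). MRPL35 had 48.8, 22.6 and 31.9 CPM under palbociclib and 67.6, 55.6 and 54.5 CPM in control. Its deposited TPM values lay closer together, at 37.0, 34.9 and 41.4 under palbociclib and 47.0, 44.1 and 43.1 in control. Of the most and least abundant members, none passed the test. MRPL28 had 78.9, 77.3 and 44.1 CPM under palbociclib and 61.5, 89.7 and 87.8 CPM in control. MRPL20 had 61.5, 56.1 and 45.1 CPM under palbociclib and 58.1, 66.5 and 66.7 CPM in control. In both, which are GC-rich at 63.3% and 54.8%, palbociclib 3 and control 1 were the lowest libraries of their groups. MRPS23 had 28.1, 30.3 and 38.5 CPM under palbociclib and 46.8, 40.3 and 41.9 CPM in control, and MRPL50 had 23.0, 25.3 and 35.6 CPM under palbociclib and 40.9, 27.5 and 27.4 CPM in control.

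Without palbociclib 3 and control 1, 32 members fell under palbociclib and 0 rose, against 15.5% and 13.1% of all genes. With the libraries of these 2 groups fitted alone, 3 members fell (MRPL18, MRPL58 and MRPS35) and 0 rose, against 4.54% and 4.94% of 19401 genes. In that fit the members' share of falls, 3.85%, was thus not above the background.

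Next, cells given both drugs were set against control. Of the 78 genes, 23 fell and 3 rose (edgeR adjusted p under 0.05), with a median log2 change of -0.18 against 0.03 for all genes. The shares, 29.5% and 3.85%, stand against 16.3% of all genes that fell and 15.4% that rose. In all 23 that fell, each combination library lay below each control library, as in 99.0% of all genes that fell. Called or not, 33 of 78 members had this order, against 23.5% of all genes tested. Because it uses the same control libraries as the palbociclib comparison, likeness between these 2 sets of values is not independent evidence, and they are given side by side.

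**Figure D5:**
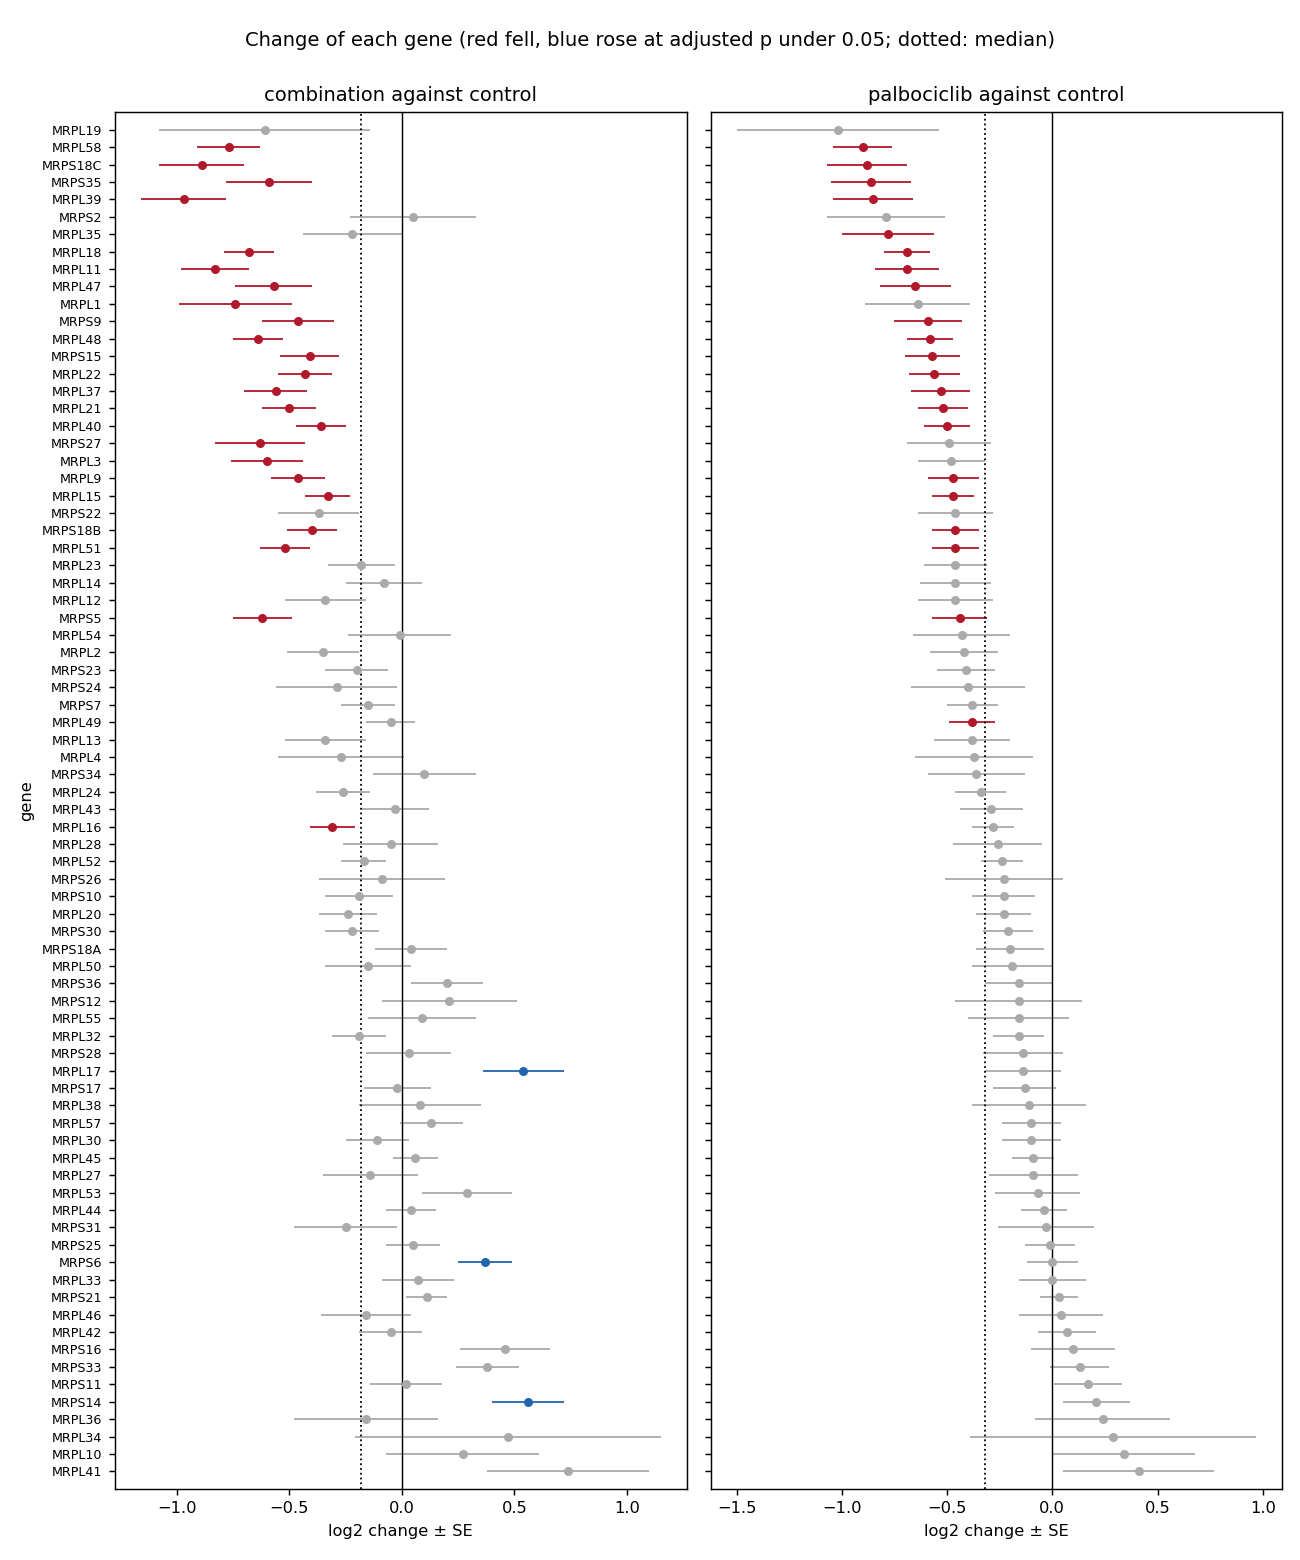
Fitted log2 change of each of the 78 genes with its SE, for the combination against control (left) and palbociclib against control (right), ordered by the palbociclib value, with genes that fell in red and genes that rose in blue. The dotted medians are -0.18 and -0.32, and the red genes gather at the top of both panels while the 3 blue ones appear in the combination.

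The largest called falls were those of MRPL39, MRPS18C, MRPL11 and MRPL58. MRPL39 had 10.9, 11 and 12 CPM in the combination, against 26.0, 20.8 and 19.6 CPM in control, a change of -0.97 ± 0.19 (log2, SE, adjusted p = 0.00234 by edgeR) beside -0.85 under palbociclib. MRPS18C changed by -0.89 ± 0.19 (adjusted p = 0.0045 by edgeR) beside -0.88, MRPL11 by -0.83 ± 0.15 (adjusted p = 0.00164 by edgeR) beside -0.69, and MRPL58 by -0.77 ± 0.14 (adjusted p = 0.00123 by edgeR) beside -0.90. None of these 4 genes passed the test in the direct comparison of the combination with palbociclib given below. In all, 19 genes fell both under the combination and under palbociclib. MRPL1, MRPL3, MRPL16 and MRPS27 passed the test for the combination and not for palbociclib, and MRPL35 and MRPL49 for palbociclib and not for the combination, without a test of the difference at this point. Of the 21 genes that fell under palbociclib, 14 had a smaller fitted fall in the combination.

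MRPL3, the abundant core protein, had 105, 107 and 92.9 CPM in the combination and 186, 137 and 141 CPM in control, a change of -0.60 ± 0.16 (log2, SE, adjusted p = 0.0143 by edgeR). MRPS27 had 43.1, 31.6 and 38.0 CPM in the combination and 77.4, 45.1 and 51.5 CPM in control (-0.63 ± 0.20, adjusted p = 0.0361 by edgeR). Control 1 was the highest library for both. Without control 1 and palbociclib 3 the change of MRPL3 was -0.47 and that of MRPS27 -0.38, and leaving out control 1, combination 2 or combination 3 alone took MRPS27 to adjusted p = 0.118, 0.113 and 0.0766 by edgeR. The exons of MRPS27 overlap those of PTCD2, which averaged 33.4 ± 1.22 CPM in the combination and 38.2 ± 2.48 CPM in control (SD, n = 3 each).

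The 3 genes that rose were MRPS14, MRPL17 and MRPS6. MRPS14, a protein of the small subunit's head, had 41.7, 46.4 and 45.2 CPM in the combination, 28.4, 37.6 and 38.8 CPM under palbociclib, 30.7, 34.9 and 38.5 CPM under BLU9931, and 36.6, 27.7 and 26.2 CPM in control. The combination libraries lay above all others, with a change of 0.56 ± 0.16 against control (log2, SE, adjusted p = 0.0219 by edgeR). CACYBP, whose exons overlap those of MRPS14, was more abundant and fell, at 63.4 ± 3.83 CPM in the combination and 132 ± 26.3 CPM in control (adjusted p = 0.018 by edgeR).

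MRPL17, a bacterial-type protein of the large subunit, had 29.7, 26.1 and 31.4 CPM in the combination, 16, 23.9 and 14.4 CPM under palbociclib, 15.2, 15.5 and 14.1 CPM under BLU9931, and 23.0, 19.0 and 18 CPM in control. The combination libraries were again above every other library, while the BLU9931 libraries lay below every control library. Its change against control was 0.54 ± 0.18 (log2, SE, adjusted p = 0.0423 by edgeR). MRPS6, of the small subunit's platform, had 39.7, 41.2 and 38.3 CPM in the combination, 29.7, 30.5 and 31.7 CPM under palbociclib, 27.8, 31.7 and 31.8 CPM under BLU9931, and 34.4, 26.6 and 30.9 CPM in control. It rose by 0.37 ± 0.12 (adjusted p = 0.0317 by edgeR), with SLC5A3, which overlaps it, at 49.7 ± 4.89 CPM in the combination and 66.1 ± 8.07 CPM in control.

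By structural group, 10 of 30 large-subunit proteins with a bacterial counterpart fell and 1 rose (median -0.26), and 6 of 21 of those particular to mitochondria fell (median -0.05). In the small subunit, 4 of 16 with a bacterial counterpart fell and 2 rose (median 0.00), and 3 of 10 without one fell (median -0.23). Of all genes, 16.3% fell and 15.4% rose in this comparison, and the groups' shares were not compared. The role panel held further genes that did not pass. MRPL41 had 16, 18.3 and 24.7 CPM in the combination and 6.59, 12.8 and 16 CPM in control (0.74 ± 0.36, adjusted p = 0.143 by edgeR). MRPS16 had 38.3, 36.2 and 46.1 CPM in the combination and 24.2, 32.2 and 31.3 CPM in control (0.46 ± 0.20, adjusted p = 0.101 by edgeR). The combination libraries of MRPS16 all lay above control, while those of MRPL41 reached down to the highest control library.

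Of the remaining panel genes in the combination, MRPL2 had 21.7, 21.1 and 21.1 CPM, MRPL12 41.7, 41.4 and 54.6 CPM, and MRPL10 49.3, 49.1 and 28.6 CPM. MRPL44 had 35.5, 38.7 and 38.7 CPM, MRPL45 88.6, 91.5 and 91.0 CPM, and MRPS30 83.8, 83.6 and 83.9 CPM. MRPS7 had 71.9, 70.6 and 82.1 CPM, MRPS12 35.8, 33.9 and 37.4 CPM, MRPS18A 22.1, 25 and 25.6 CPM, and MRPS36 9.29, 6.75 and 9.78 CPM. None of these 10 passed the test against control (edgeR adjusted p between 0.119 for MRPL2 and 0.861 for MRPS18A). The most and least abundant members did not pass either, apart from MRPL3, with 74.0, 78 and 79.2 CPM for MRPL28, 52.1, 53.6 and 56.5 CPM for MRPL20, 38.8, 36 and 37.6 CPM for MRPS23, and 29.9, 28.9 and 27.4 CPM for MRPL50.

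Without control 1 and palbociclib 3, 31 members fell and 4 rose in the combination, against 20.3% and 18.6% of all genes. The total of 26 calls dropped to 16 without combination 1, without combination 2 or without combination 3, and the 23 falls dropped to 15 without control 1 or without combination 1. The members' share of calls thus went from 33.3% to 20.5% when a combination library was left out. Calls over all genes dropped too, from 31.7% to 24.3%, 24.4% and 24.1% without combination 1, 2 and 3. The rises of MRPL17 and MRPS6 were the least stable, since leaving out any 1 of the 3 combination libraries raised their adjusted p above 0.05, to at most 0.151 and 0.123 over the alternatives tried, and MRPS14 lost its call without control 2 or 3 or combination 2 or 3 (at most 0.0796). Of the falls named, MRPS35 (-0.59 ± 0.19, adjusted p = 0.0357 by edgeR) had adjusted p = 0.106 without control 1 or combination 3, and MRPS18B (-0.40 ± 0.11, adjusted p = 0.0183 by edgeR) at most 0.0813 without control 2 or 3 or combination 1.

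For BLU9931 alone against control, no member passed the threshold (edgeR), with 15 of 78 at an unadjusted p under 0.05, or 19.2%, beside 16.2% of all genes. By edgeR, 0.141% of all genes rose and 0.0388% fell. DESeq2 called 2 falls of members, those of MRPL15 and MRPS18C (2.56%), beside falls of 1.43% of all genes. The median change was -0.13, against 0.00 for all genes, and the changes ranged from -0.67 to 0.40. MRPL15, a protein of the large-subunit core, had 38.9, 38.1 and 40.6 CPM under BLU9931 and 59.0, 55.7 and 53.0 CPM in control, and came closest to the threshold (-0.51 ± 0.10, adjusted p = 0.0647 by edgeR). These libraries do not overlap.

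MRPS18C, at 25.2, 19.9 and 22.7 CPM under BLU9931, was the member with the lowest change (-0.67 ± 0.19, adjusted p = 0.172 by edgeR). MRPL3 had 110.0, 103 and 115 CPM under BLU9931 and 186, 137 and 141 CPM in control (-0.50 ± 0.16, adjusted p = 0.205 by edgeR). Both groups of libraries lie wholly below control, without a call. The change under BLU9931 followed GC content across the 78 genes at a rho of 0.61, and at 0.29 without control 1 and palbociclib 3. Of the other described members, MRPL58, MRPL11, MRPL21, MRPL12 and MRPL2 had BLU9931 libraries overlapping control, with changes between -0.08 and 0.05. Others, such as MRPL39, MRPL48, MRPS23, MRPS25 and MRPS35, had every BLU9931 library below every control library, also without a call. Without the 2 libraries that stand apart, 2 members fell, MRPL15 and MRPL3, and 0 rose, against 1.23% and 1.39% of all genes, and with palbociclib 3 alone left out 1 fell, MRPL15. In that last fit 1.86% of all genes were called.

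The combination was set against palbociclib to ask what BLU9931 adds. No member passed the threshold (edgeR), with 7 of 78 at an unadjusted p under 0.05 (8.97%, against 15.5% of all genes), and DESeq2 called 2 rises, those of MRPL17 and MRPS6 (2.56%, against 1.83% of all genes). By edgeR, 0.917% of all genes rose and 2.91% fell. The fitted change was above 0 for 56 of 78 members, with a median of 0.11 against 0.00 for all genes, and ranged from -0.40 to 0.83. MRPL17 came closest, at 29.7, 26.1 and 31.4 CPM in the combination and 16, 23.9 and 14.4 CPM under palbociclib, which do not overlap (0.69 ± 0.18, adjusted p = 0.0681 by edgeR). MRPS6, at 39.7, 41.2 and 38.3 CPM in the combination and 29.7, 30.5 and 31.7 CPM under palbociclib, did not overlap either (0.37 ± 0.12, adjusted p = 0.128 by edgeR). Of the genes lowest under palbociclib, MRPL58 differed by 0.12 ± 0.14, MRPS18C by -0.01 ± 0.19, MRPL39 by -0.12 ± 0.19 and MRPS35 by 0.27 ± 0.19 (log2, SE), and their libraries overlap between the groups. Without control 1 and palbociclib 3, 2 members rose, MRPL19 and MRPS6, and 0 fell, against 3.87% and 5.81% of all genes, and leaving out palbociclib 1, 2 or 3 alone gave 1 rise each, of MRPL35, MRPL17 and MRPL19 in that order. With palbociclib 1, 2 or 3 alone left out, 2.86%, 2.52% and 3.87% of all genes were called. Over all libraries, MRPL35 averaged 51.0 CPM in the combination and 34.4 CPM under palbociclib, but 38.5 and 37.8 TPM.

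The combination was set against BLU9931 to ask what palbociclib adds. Of the 78 genes, 8 fell and 4 rose (edgeR adjusted p under 0.05, median -0.03 against 0.03 for all genes). The shares of 10.3% and 5.13% were below those of all genes, of which 13.7% fell and 13.3% rose. The 8 that fell were MRPL9, MRPL11, MRPL18, MRPL21, MRPL48, MRPL51, MRPL58 and MRPS18B, all of which also fell in the comparisons of palbociclib and of the combination with control, the combination libraries being shared. MRPL11 had 29.4, 29.4 and 30 CPM in the combination and 50, 46.2 and 53.5 CPM under BLU9931 (-0.75 ± 0.15, adjusted p = 0.00365 by edgeR). MRPL58 changed by -0.69 ± 0.14 (adjusted p = 0.00293 by edgeR) and MRPL48 by -0.43 ± 0.11 (adjusted p = 0.0164 by edgeR).

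MRPL21, a bacterial-type protein of the large subunit, had 21.8, 26.2 and 26.3 CPM in the combination, 22.8, 27.1 and 23.7 CPM under palbociclib, 35.4, 32.8 and 33.6 CPM under BLU9931, and 35.4, 35.5 and 34.4 CPM in control. Libraries with palbociclib and without it do not overlap. Its change against BLU9931 was -0.45 ± 0.12 (adjusted p = 0.0131 by edgeR), and IGHMBP2, which starts 7 bases away on the other strand, changed by -0.55 without passing the test (adjusted p = 0.075 by edgeR). MRPS18B had 29.6, 33.2 and 34.4 CPM in the combination and 47.8, 40.9 and 40.9 CPM under BLU9931 (-0.41 ± 0.11, adjusted p = 0.0174 by edgeR).

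The 4 that rose against BLU9931 were MRPL17, MRPS25, MRPS33 and MRPS6. MRPL17 was higher by 0.96 ± 0.19 (log2, SE, adjusted p = 0.0026 by edgeR), 1.95-fold, the largest called change of a member in any of the 6 comparisons by fitted value except for the fall of MRPL39 against control. MRPS25, of the small subunit and particular to mitochondria, had 61.0, 56.3 and 49.8 CPM in the combination, 57.6, 52.0 and 51.6 CPM under palbociclib, 34.1, 44.0 and 43.5 CPM under BLU9931, and 52.8, 55.3 and 53.7 CPM in control. Here the BLU9931 libraries were the ones that lay apart, below all others, and the change was 0.46 ± 0.13 (adjusted p = 0.0181 by edgeR). NR2C2, which overlaps MRPS25, averaged 125 ± 8.94 CPM in the combination and 134 ± 4.69 CPM under BLU9931. MRPS33, also of the small subunit, had 16.5, 17.2 and 18.1 CPM in the combination, 12.4, 15.9 and 15.4 CPM under palbociclib, 11.1, 12.9 and 14.4 CPM under BLU9931, and 14.2, 12.7 and 12.8 CPM in control (0.43 ± 0.14, adjusted p = 0.0421 by edgeR). MRPS6 rose by 0.38 ± 0.12 (adjusted p = 0.0324 by edgeR).

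Without control 1 and palbociclib 3, 16 members fell and 7 rose in this comparison, against 21.3% and 19.9% of all genes, although neither library belongs to these groups. The total of 12 calls dropped to 6 (7.69%) without BLU9931 1 or without combination 1, where 19.3% and 19.6% of all genes were called. Of the falls, MRPS18B lost its call in both cases and MRPL21 without combination 1 (adjusted p = 0.0537 by edgeR). With GC offsets MRPL21 lost this call too (adjusted p = 0.144 by edgeR, and 0.2 with the replicate block added). Among the rises, MRPS33 and MRPS6 lost their calls without any 1 of the combination libraries, MRPS25 without combination 1 or 2, and all 3 of these without BLU9931 1 (adjusted p at most 0.202 by edgeR).

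The interaction term measures, on the log2 scale, how far the response to both drugs departs from adding up the 2 single responses. It called 1 member, MRPL15, with a value of 0.65 ± 0.14 (log2, SE, adjusted p = 0.0429 by edgeR), while 0.281% of all genes had a positive and 1.31% a negative call. MRPL15 had 43.3, 45.0 and 45.3 CPM in the combination, 38.1, 39.7 and 43.4 CPM under palbociclib, 38.9, 38.1 and 40.6 CPM under BLU9931, and 59.0, 55.7 and 53.0 CPM in control. Each drug alone was thus some way below control (-0.47 for palbociclib, -0.51 for BLU9931), and the combination libraries overlapped or lay above those of the single drugs (-0.33 against control, adjusted p = 0.0241 by edgeR, and at most 0.0658 without combination 1 or 2). The interaction was positive for 68 of 78 members, with a median of 0.23 against -0.02 for all genes. MRPL17, at 1.11 ± 0.26, missed the threshold (adjusted p = 0.0672 by edgeR).

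The call of MRPL15 was lost when any 1 of the libraries of control, BLU9931 or the combination, or palbociclib 1 or 2, was left out (adjusted p at most 0.125 by edgeR). Without both control 1 and palbociclib 3, 9 members had a positive interaction, MRPL15 among them at 0.66 (adjusted p = 0.00362 by edgeR), and 0 a negative one, against 4.65% and 5.39% of all genes. The other 8 were MRPL3, MRPL17, MRPL19, MRPL45, MRPL47, MRPS18C, MRPS22 and MRPS23. Leaving out palbociclib 3 alone gave 4 positive calls (5.13%), MRPL15, MRPL17, MRPL19 and MRPS23, while 4.64% of all genes were called in either direction.

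Companion lists, chosen with earlier results of these data known, cover the rest of mitochondrial translation. As background for all of these lists, 10.5% of all genes tested fell and 10% rose under palbociclib. In the combination 16.3% fell and 15.4% rose, and the shares of the lists were not compared with these. The other mitoribosomal proteins in the lists, DAP3, AURKAIP1, PTCD3, CHCHD1 and GADD45GIP1, gave 0 calls of 5 in every comparison (medians -0.16 under palbociclib and -0.13 in the combination), and none of the lists described here gave a call under BLU9931. Of 26 assembly factors, 3 fell under palbociclib (median -0.14) and 4 fell and 1 rose in the combination (median -0.03). NGRN, needed for the large ribosomal RNA, averaged 133 ± 1.19 CPM in the combination, 120.0 ± 4.84 CPM under palbociclib and 169 ± 1.75 CPM in control (SD, n = 3 each), and METTL17, a factor of the small subunit, fell by 0.47 under palbociclib. In the combination, TRUB2, a pseudouridine synthase, rose by 0.67 ± 0.12 (adjusted p = 0.00153 by edgeR), and RBFA, which helps to mature the small subunit, fell by 0.57.

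Of 17 translation factors, 2 fell and 1 rose under palbociclib and 2 fell and 2 rose in the combination. GFM2, which recycles ribosomes, averaged 76.8 ± 1.19 CPM in the combination, 85.6 ± 9.56 CPM under palbociclib and 61.8 ± 2.66 CPM in control (SD, n = 3 each). LRPPRC and SLIRP, partners that stabilize mitochondrial mRNAs, fell by 0.47 and 0.38 under palbociclib and by 0.42 and 0.51 in the combination. Of 16 genes of mitochondrial DNA transcription and RNA processing, 2 fell under palbociclib and 2 fell and 1 rose in the combination. The exoribonuclease gene PNPT1 fell by 0.71 under palbociclib and by 0.84 in the combination, and POLG2, of the mitochondrial DNA polymerase, by 0.89 in the combination. The helicase gene TWNK, which starts 148 bases from MRPL43, averaged 31.9 ± 0.857 CPM in the combination, 23.0 ± 0.753 CPM under palbociclib and 30.6 ± 2.24 CPM in control (SD, n = 3 each). TWNK fell under palbociclib (adjusted p = 0.0226 by edgeR) and rose in the combination against palbociclib (adjusted p = 0.0401 by edgeR). Its exons overlap those of MRPL43, so their reads cannot be told apart, and MRPL43 averaged 22.5, 18.7 and 23.0 CPM in the same order of groups.

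Of 12 genes of mitochondrial import, 7 fell under palbociclib (median -0.47) and 5 in the combination (median -0.34), beside 10.5% and 16.3% of all genes. TOMM22, a receptor of the outer membrane, averaged 58.1 ± 4.59 CPM in the combination, 48.5 ± 2.11 CPM under palbociclib and 76.9 ± 5.69 CPM in control, and HSPE1, a co-chaperonin of the matrix, averaged 81.6 ± 4.58, 87.4 ± 4.66 and 133 ± 20.4 CPM in the same groups (SD, n = 3 each). Of 9 regulators known for these genes, 2 fell and 1 rose both under palbociclib and in the combination. PPARGC1B, a coactivator, averaged 7.66 ± 3.81 CPM in the combination, 11.8 ± 1.03 CPM under palbociclib, 33.5 ± 3.02 CPM under BLU9931 and 29.4 ± 0.855 CPM in control (change in the combination -1.94 ± 0.31, adjusted p = 0.000681 by edgeR). PPARGC1A, its paralog, averaged 5.24 ± 0.323, 4.04 ± 1.38, 3.17 ± 0.265 and 2.03 ± 0.759 CPM in the same order of groups, and rose by 1.38 in the combination (adjusted p = 0.00322 by edgeR). NRF1 fell by 0.56 under palbociclib and by 0.49 in the combination. The 2 coactivators thus moved in opposite directions. MYC, at 2.83 to 50.6 CPM over the libraries, overlapped in all groups, and GABPA and YY1 passed no test.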

How the data were processed

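RNA of the 12 libraries was sequenced, and the authors deposited whole-number counts per gene, with TPM and FPKM values beside them, per the file headers. Trimmomatic 0.36, HISAT2 2.0, bedtools 2.26.0 and StringTie 1.3.3b are named in the submitters' processing notes, which also name a mouse build, while the gene IDs are human. Of 58174 IDs, 57836 matched GENCODE 29 (GRCh38). How reads were assigned and whether strand was used is not given in the sources used here. No column belonged to other samples (0 columns), and no gene name was blank.

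The deposited counts (21.7 M to 35.8 M per library) were analysed with edgeR 4.0.16 in R 4.3.3. Genes were filtered with filterByExpr, scaled with TMM, and fitted over all 12 libraries and 4 groups by the robust quasi-likelihood method (glmQLFit, glmQLFTest), with 8 residual degrees of freedom and a common dispersion of 0.0518. A gene rose or fell when its Benjamini-Hochberg adjusted p over 20612 genes was under 0.05, with no minimum fold. CPM values use TMM factors, and log2 CPM a prior count of 2. Alternatives were DESeq2 1.42.0, library totals, RLE factors, no filter, limma 3.58.1 on log2 of the deposited TPM or FPKM values plus a pseudocount of 1, the compared groups fitted alone, a replicate block, each library left out, control 1 and palbociclib 3 left out together, and GC offsets (loess span 0.3) without and with the block. Groups and replicate numbers come from the labels. No pairing of the samples by replicate number was seen, and the labels state none.

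Genes described in full were the 4 largest called changes per direction and comparison, a panel chosen by role, the 3 highest and 3 lowest by mean TPM, and those with a called interaction. Other genes are named as part of a count of calls, as overlapping neighbours, or after their values were seen. The members and gene lists were chosen with earlier results of these data known. MTRFR and PRORP are listed under the older symbols C12orf65 and KIAA0391. Python 3.11.15 with pandas 2.3.3 made the tables, matplotlib 3.10.9 drew the figures, and Spearman coefficients come from scipy 1.17.1. The summed level of the neuroendocrine markers is not reported here.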

Additional observations from a re-analysis of the deposited data

Results flagged for a closer look

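MRPL15 is singled out because the effect of BLU9931 on it differed with and without palbociclib. The interaction was 0.65 on the log2 scale (SE 0.14, adjusted p = 0.0429 by edgeR's quasi-likelihood test), 3 libraries per group. BLU9931 changed MRPL15 by -0.51 without palbociclib and by 0.14 with it, and neither single effect passed the test (adjusted p = 0.0647 and 0.572 by edgeR). Over the alternatives the interaction ranged from 0.55 to 0.71, and it missed the threshold in 14 of them, with adjusted p up to 0.135.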

How the results depend on the processing

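The main totals of members called were 21 for palbociclib against control, 0 for BLU9931 against control, 26 for the combination against control, 0 against palbociclib, 12 against BLU9931, and 1 for the interaction. For palbociclib the total was 3 with the compared groups alone, 32 without control 1 and palbociclib 3, 41 with GC offsets and 38 with GC offsets and the replicate block, and 16 to 26 with 1 library left out. Calls over all genes moved too, being 20.6% in the main comparison and 9.48%, 28.6%, 34.7% and 32.3% in the first 4 of these alternatives, where the members' shares were 3.85%, 41.0%, 52.6% and 48.7%. For BLU9931 it was 2 with DESeq2, 2 without both libraries, 4 with GC offsets, 1 with GC offsets and the block, and 0 to 1 with 1 library left out, while 2.86%, 2.62%, 3.3% and 1.92% of all genes were called in the first 4. For the combination against control it was 16 to 30 (20.5% to 38.5%) with 1 library left out, beside 24.1% to 37.0% of all genes. Against palbociclib it was 2 with DESeq2, 2 without both libraries, 2 with GC offsets, 1 with GC offsets and the block, and 0 to 1 with 1 library left out, beside 6.44%, 9.69%, 11.1% and 9.16% of all genes in the first 4. Against BLU9931 it was 26 with the compared groups alone, 23 without both libraries, 23 with GC offsets, 20 with GC offsets and the block, and 6 to 16 with 1 library left out, beside 27.0% of all genes in the main comparison and 41.8%, 41.2%, 41.1% and 38.9% in the first 4 alternatives. The interaction gave 3 with DESeq2, 0 without the filter, 0 with TPM, 0 with the replicate block, 9 without both libraries, 6 with GC offsets, 4 with GC offsets and the block, and 0 to 4 with 1 library left out. With DESeq2, GC offsets, and GC offsets and the block, the members' shares were 3.85%, 7.69% and 5.13%. Calls over all genes, in either direction, were 4.14%, 8.39% and 6.43% there, so the members' shares were not above them. Without both libraries the members' share was 11.5%, all positive, beside 4.65% positive and 5.39% negative calls over all genes. The replicate block gave 18, 0, 19, 0 and 9 calls in the other comparisons, in the order above. Of all genes, 15.7%, 0.0097%, 27.2%, 2.34% and 22.7% were called there. No pairing by number was seen, as same-numbered libraries correlated at -0.36 to 0.17 in their deviations, over 0.1 in 3 of 18 pairs, and 4 of 12 libraries correlated best with their own number. These correlations include the GC-related deviations of control 1 and palbociclib 3, so they cannot show that pairing is absent. Of 1172 alternatives for 51 values of named genes, 1021 kept direction and side of the threshold, 106 lost the call, 33 gained one and 12 changed sign, and 13 of 33 called values were kept throughout. All sign changes were under palbociclib in genes without a call. MRPL44 (-0.04) was 0.03 with library totals, 0.02 with TPM, 0.03 with FPKM, 0.04 with GC offsets, 0.04 with GC offsets and the block and 0.02 without control 1. With 1 library left out, MRPL50 (-0.19) ranged from -0.41 (without palbociclib 3) to 0.03 (without control 1), MRPS12 (-0.16) from -0.39 (without control 1) to 0.16 (without palbociclib 3), and MRPS16 (0.10) from -0.12 (without palbociclib 2; -0.02 without control 1) to 0.30 (without palbociclib 3), and MRPS36 (-0.16) was 0.01 with GC offsets, with and without the block. The cause of these changes was not tested.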

Other observations

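Outside the members and companion lists, the squamous marker KRT15, a keratin of basal cells, rose by 1.70 under palbociclib and by 1.70 in the combination. Both changes are against control on the log2 scale (adjusted p = 0.000142 and 5.23e-05 by edgeR).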
